A study of Homo sapiens with 18 samples.

Results

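The genes described here are 10 transporters and carriers of copper and platinum: SLC31A1, SLC31A2, ATOX1, ATP7A, ATP7B, ABCC1, ABCC2, ABCC4, ABCC5 and LRRC8A. They were chosen by name, as genes that have been linked to the entry of cisplatin into cells or to its export. The rule uses no measured value, but it was set with earlier results of these data known. All 10 have a row among the 23622 genes of the RNA-seq count table, and all 10 passed edgeR's filter on low counts, which kept 15760 genes for testing.

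The cells were A2780, a cisplatin-sensitive human ovarian carcinoma line, and Acis (A2780cis), a resistant line derived from it, which was kept resistant by adding 1 µM cisplatin every 3 passages. Each line was analyzed as an untreated control and after 3 h in 200 µM cisplatin, and each of these 4 groups had 3 RNA-seq libraries. Acis is 1 derived line, so a difference between the lines cannot be told apart from other differences between these populations of cells. The methods describe triplicate wells for each condition of the RNA-seq, and nothing says that these were seeded from separate passages or on separate days, so the p-values measure only the spread between such samples, which may be technical. Accessible chromatin was mapped by ATAC-seq, with 1 list of peaks per condition. In bulk RNA, fewer cells that express a gene and less RNA per cell cannot be told apart.

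Copper enters mammalian cells mainly through the high-affinity transporter CTR1, encoded by SLC31A1, and is handed on by small carrier proteins. The chaperone encoded by ATOX1 delivers it to the P-type ATPases encoded by ATP7A and ATP7B, which pump copper into the secretory pathway and out of the cell. The same proteins have been studied as carriers of cisplatin, whose platinum can bind their metal sites, while the multidrug resistance proteins of the ABCC family export conjugated drugs and the LRRC8A protein is the obligatory subunit of volume-regulated anion channels, through which cisplatin can pass.

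The sequences just upstream of 4 of these genes are shown first, because the RNA of SLC31A1, ATP7A and ATP7B was lower in Acis than in A2780 cells with an ATAC-seq peak over each start, and because ABCC2, the member with the lowest counts, had no peak at its start. They are the 250 bases before the RefSeq transcription start on GRCh38.p14, written 5′ to 3′ along the strand of the gene. SLC31A1 lies on the plus strand of chromosome 9 (chr9:113221294-113221543), ATP7A on the plus strand of chromosome X (chrX:77910443-77910692), ATP7B on the minus strand of chromosome 13 (chr13:52012133-52012382) and ABCC2 on the plus strand of chromosome 10 (chr10:99782390-99782639). Capitals mark the core of the metal response element, the motif bound by the metal-sensing factor MTF1 (TGCNCNC, or GNGNGCA on the other strand), and the GC box bound by SP1 (GGGCGG, or CCGCCC on the other strand).
SLC31A1: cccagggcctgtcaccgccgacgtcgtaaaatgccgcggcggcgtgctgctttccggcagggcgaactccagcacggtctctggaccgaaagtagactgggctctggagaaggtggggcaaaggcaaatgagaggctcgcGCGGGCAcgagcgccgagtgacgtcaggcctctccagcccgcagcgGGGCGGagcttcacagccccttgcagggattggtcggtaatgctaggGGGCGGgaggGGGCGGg
ATP7A: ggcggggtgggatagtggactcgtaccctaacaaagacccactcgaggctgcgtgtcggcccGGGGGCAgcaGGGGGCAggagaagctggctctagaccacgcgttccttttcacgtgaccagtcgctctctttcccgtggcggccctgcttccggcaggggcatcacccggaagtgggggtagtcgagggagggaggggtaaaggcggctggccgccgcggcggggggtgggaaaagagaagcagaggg
ATP7B: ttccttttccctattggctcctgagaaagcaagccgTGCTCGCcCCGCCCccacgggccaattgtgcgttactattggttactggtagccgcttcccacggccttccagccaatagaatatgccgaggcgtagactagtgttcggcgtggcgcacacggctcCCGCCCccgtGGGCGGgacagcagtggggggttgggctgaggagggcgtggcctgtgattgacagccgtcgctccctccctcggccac
ABCC2: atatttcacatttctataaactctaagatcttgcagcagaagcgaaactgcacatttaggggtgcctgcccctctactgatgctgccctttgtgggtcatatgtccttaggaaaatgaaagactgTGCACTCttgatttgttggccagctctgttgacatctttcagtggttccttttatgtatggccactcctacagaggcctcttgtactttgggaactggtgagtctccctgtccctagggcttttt

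RefSeq upstream sequences were matched for 8 of the 10 members, all but SLC31A2 and ABCC1. SLC31A1 had 1 match to the loose metal response element core, at -110 from the start, and 3 GC boxes, the nearest at -7. ATP7A had 2 matches to the loose metal response element core, at -188 and -178, and no GC box. In ATP7B the 1 match to the core at -214 lay next to the GC box at -206, without overlap, and 2 further GC boxes lay at -88 and -78. ABCC2 had 1 match to the core at -125 and no GC box, and its window had a GC content of 45.6%, against 64.0% to 80.4% in the other 7 members and a median of 58.0% over all 35116 windows. Among the 8 members the loose core occurred in 6, where it was found in 49.1% of all windows. The GC box occurred in 5, where it was found in 42.6% of all windows. The 2 matches in ATOX1 overlap each other on opposite strands. These matches describe the letters of the windows and no binding was measured.

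Total counts per library ranged from 4130644 to 5072216. KRT8, KRT18 and EPCAM, markers of epithelial carcinoma, had rows, and KRT19, CDH1, PAX8, WT1 and MUC16 had none. The summed normalized count of the 3 ranged from 34.6 to 51.3 in A2780 control and from 135 to 158 in Acis control libraries, and from 49.1 to 63.8 and from 146 to 154 after cisplatin. Of 2 tested, KRT18 was higher and KRT8 lower in Acis control than in A2780 control cells. All 3 fibroblast markers fixed for the check (COL1A1, COL1A2 and DCN) were lower in Acis, with a sum of 1586 to 1736 in untreated and 1226 to 1417 in treated A2780 libraries, against 10.6 to 26.6 in untreated and 14.8 to 23.6 in treated Acis libraries, and COL1A2 had no counts in the Acis control libraries. Of the markers of blood cells only CD14 had a row, at no more than 3.75 normalized counts in any library, and the endothelial markers had none. These markers moved with the line in every comparison of Acis with A2780 given here, and their part in the results was not tested.

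To compare levels between genes, counts were divided by the merged exon length and the library size, giving RPKM (reads per kilobase of exon, scaled to library size). In A2780 control cells SLC31A1 had the highest level of the 10, at 27.0 ± 0.20 RPKM (SD, n = 3), which 86.6% of the genes tested did not reach. ABCC1 followed at 25.5 ± 0.29, LRRC8A at 20.3 ± 1.07, ABCC4 at 15.6 ± 0.72 and ABCC5 at 15.1 ± 0.26 RPKM (SD, n = 3). ATOX1 had 6.51 ± 0.55, SLC31A2 3.31 ± 0.22, ATP7B 2.68 ± 0.28 and ATP7A 1.33 ± 0.073 RPKM (SD, n = 3). ABCC2 was lowest, at 0.374 ± 0.12 RPKM (SD, n = 3), a level that 4.44% of the genes tested did not reach. Only ABCC4 and ABCC5 overlapped as neighbours in this order. In Acis control cells the order of the 3 highest changed, with ABCC1 first at 31.4 ± 0.89, LRRC8A at 23.7 ± 1.29 and then SLC31A1 at 18.6 ± 0.75 RPKM (SD, n = 3). The levels of ATP7A, ATP7B and ABCC5 in particular depend on the length used, since the annotation merges 28126 bp of exons for ATP7A against 8569 bp in its longest transcript, 18854 bp for ATP7B against 7022 bp and 11365 bp for ABCC5 against 5852 bp. Per longest transcript the order in A2780 control cells began with ABCC1 at 33.8, ABCC5 at 29.2 and SLC31A1 at 29.2 RPKM, and ATP7B had 7.20 and ATP7A 4.37 RPKM.

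**Figure D1:**
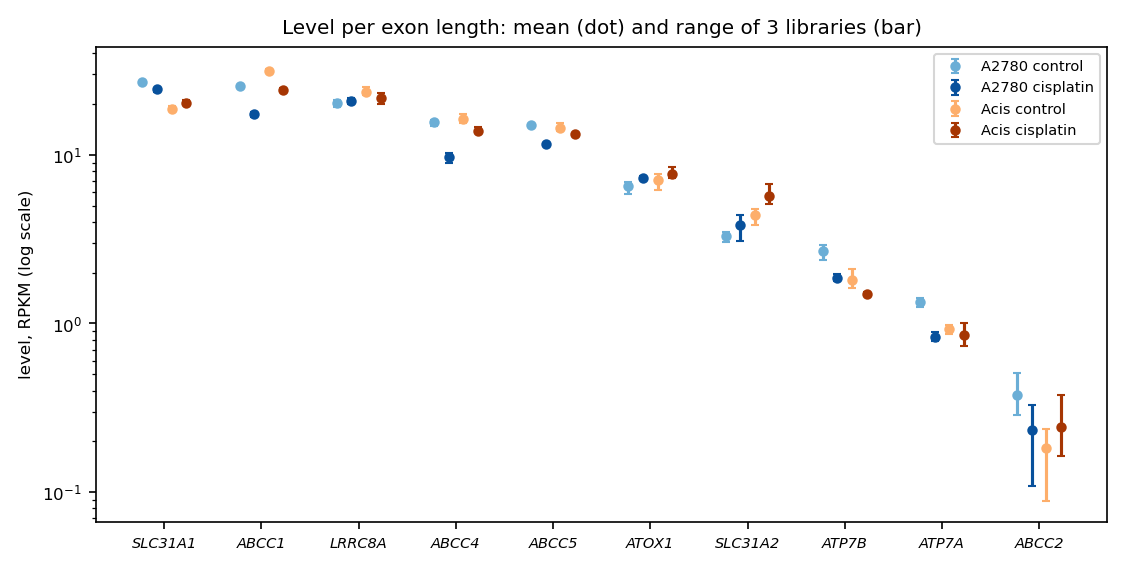
Level of each transporter gene in RPKM on a log scale, ordered by the level in A2780 control cells, with the mean of each group as a dot and the range of its 3 libraries as a bar. The level fell in the order shown from 27.0 RPKM for SLC31A1 to 0.374 RPKM for ABCC2 in A2780 control cells, and in Acis control cells ABCC1, at 31.4 RPKM, stood above SLC31A1, at 18.6 RPKM.

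The untreated lines were compared first, to see how the transporters of the resistant line differed before any acute dose. SLC31A1 was lower in Acis than in A2780 cells, as were ATP7A and ATP7B, and ABCC2 was lower at very few counts. ABCC1, LRRC8A and SLC31A2 were higher in Acis. ABCC4, ABCC5 and ATOX1 did not pass the test. Thus 3 of 10 members were higher, where 28.2% of all genes tested were, and 4 of 10 were lower, where 30.6% of all genes tested were. Of the members that passed, only ABCC2 had a log2 fold change of 1 or more in either direction. Of all genes tested, 19.1% passed with such a change. The median log2 fold change of the members was -0.01, the same as that of all genes tested (-0.01).

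SLC31A1 (ENSG00000136868), the gene of the copper importer CTR1, had 637, 639 and 630 normalized counts in the A2780 control libraries and 427, 459 and 431 in the Acis control libraries. All Acis values lay below all A2780 values. The level in Acis was 30.9% lower, a log2 fold change of -0.53 (standard error, SE, 0.05, adjusted p = 2.05e-10, edgeR's quasi-likelihood test with Benjamini-Hochberg adjustment). Reads of its processed pseudogene SLC31A1P1 were counted separately, at 0 to 13 counts per library. SLC31A2 (ENSG00000136867) encodes the related protein CTR2, which has been described as a modifier of copper uptake by CTR1. It had 38.2, 34.6 and 39.5 normalized counts in A2780 control and 54.1, 51.1 and 43.3 in Acis control libraries, without overlap, a log2 fold change of 0.41 (SE 0.17, adjusted p = 0.0433). This call did not hold with DESeq2 (adjusted p = 0.194) or when any 1 of 5 of these 6 libraries was left out (adjusted p = 0.0663 to 0.181), all but Acis control replicate 3. Of the 2473 merged exon bases of SLC31A2, 1582 overlap exons of FKBP15 on the opposite strand. Reads were counted by strand, and the share of wrong-strand reads was not examined.

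ATOX1 (ENSG00000177556), the copper chaperone, had 141, 162 and 165 normalized counts in A2780 control and 148, 180 and 184 in Acis control libraries. The groups overlapped, with a log2 fold change of 0.13 (SE 0.09, adjusted p = 0.243) and a 95% interval of the fold from 0.959 to 1.25. The copper-transporting ATPases, which receive copper from ATOX1, were both lower in Acis. ATP7B (ENSG00000123191), the gene mutated in Wilson disease, had 251, 239 and 204 normalized counts in A2780 control and 180, 141 and 148 in Acis control libraries. All 3 Acis values lay below the A2780 values, and the level was 32.6% lower, a log2 fold change of -0.57 (SE 0.09, adjusted p = 3.31e-06). ATP7A (ENSG00000165240), the gene mutated in Menkes disease, had 181, 171 and 162 normalized counts against 112, 123 and 127, again without overlap. Its log2 fold change was -0.52 (SE 0.10, adjusted p = 4.21e-05), a level 30.2% lower in Acis. ATP7A shares 479 exon bases on its own strand with PGK1 and the pseudogene C4orf46P2, so some of its reads may not have been assigned.

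Of the 4 multidrug resistance proteins, ABCC1 (ENSG00000103222), which exports glutathione conjugates, was higher in Acis. It had 1021, 1032 and 1009 normalized counts in A2780 control and 1297, 1237 and 1233 in Acis control libraries, without overlap. The level was 23.1% higher, a log2 fold change of 0.30 (SE 0.04, adjusted p = 7.67e-08). ABCC2 (ENSG00000023839), the exporter of conjugates at the apical membrane, was counted 11, 19 and 11 times in A2780 control and 3, 8 and 7 times in Acis control libraries. Its log2 fold change of -1.03 had a standard error of 0.42 and an adjusted p of 0.0363, and the 95% interval of the fold ran from 0.270 to 0.889. The call was lost with DESeq2 (adjusted p = 0.146), without A2780 control replicate 2 (adjusted p = 0.199) and without Acis control replicate 1 (adjusted p = 0.178). ABCC4 (ENSG00000125257), an exporter of cyclic nucleotides and drugs, had 637, 630 and 585 normalized counts against 608, 690 and 622, with overlap and a log2 fold change of 0.05 (adjusted p = 0.448). ABCC5 (ENSG00000114770), another exporter of cyclic nucleotides, had 793, 789 and 767 against 798, 722 and 725, with a log2 fold change of -0.07 (adjusted p = 0.200), which passed the test without Acis control replicate 1 (adjusted p = 0.0168).

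LRRC8A (ENSG00000136802) had 507, 457 and 491 normalized counts in A2780 control and 599, 560 and 538 in Acis control libraries. The Acis values lay above all A2780 values, with a log2 fold change of 0.22 (SE 0.06, adjusted p = 0.00153), a level 16.8% higher. Its partner subunits, with which it forms mixed channels, changed in the other direction. LRRC8B, LRRC8C and LRRC8D were all lower in Acis, by log2 fold changes of -1.14, -3.41 and -0.82, so that LRRC8C fell from a mean of 109 to 10.1 normalized counts. These were 3 of 3 tested, where 30.6% of all genes tested were lower. Whether the 3 changes are separate was not tested. LRRC8E had no row in the table.

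**Figure D2:**
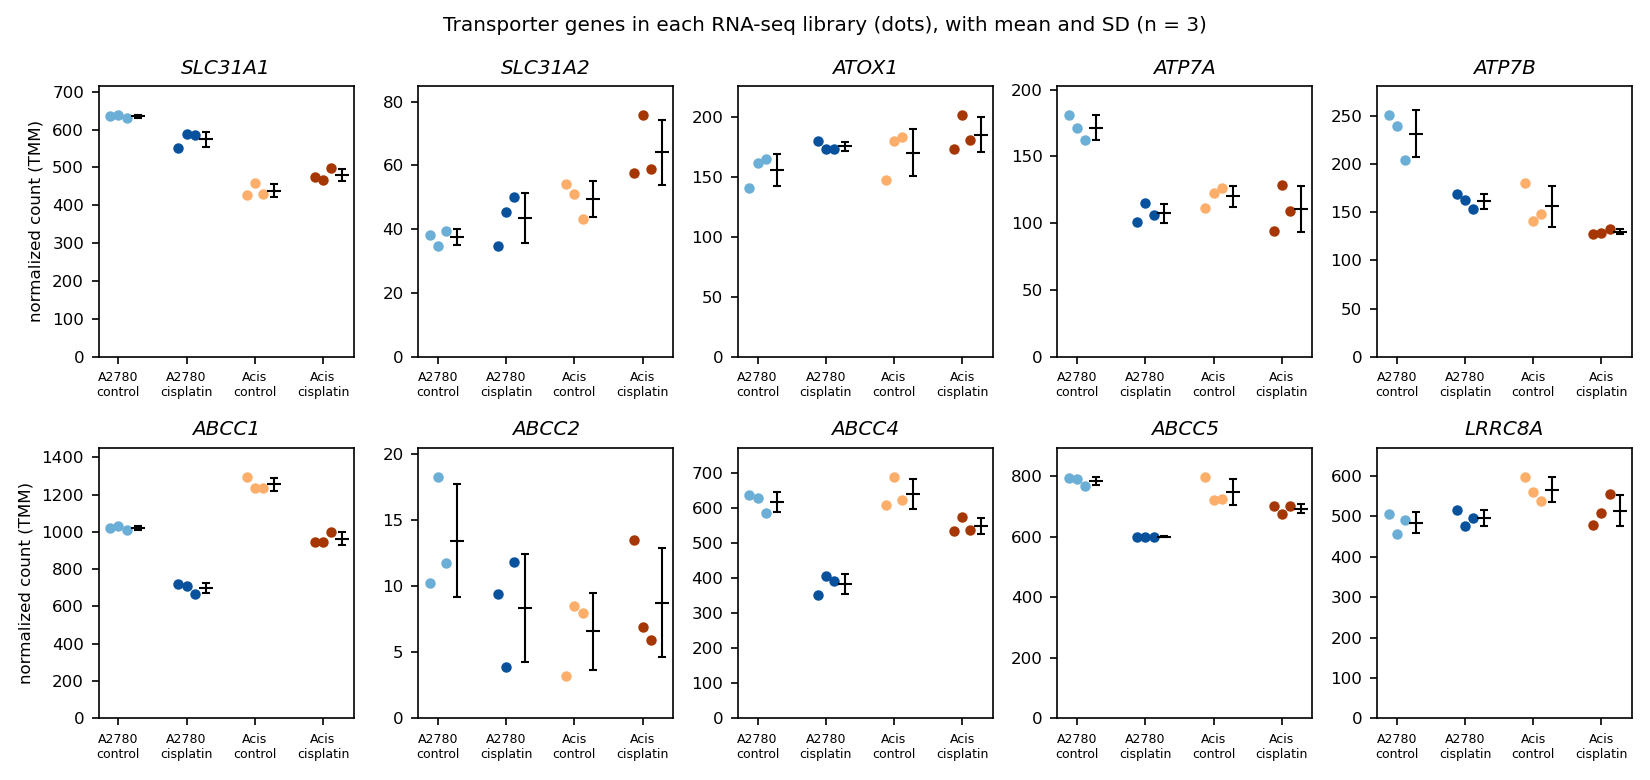
Normalized counts of the 10 transporter genes in each RNA-seq library (dots, linear axes that start at 0), with the mean and SD of the 3 libraries beside them in black. SLC31A1, ATP7A and ATP7B had their highest values in the A2780 control libraries, ABCC1 had its highest in the Acis control libraries, and ABCC2 had at most 18.3 normalized counts in any library.

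Cisplatin was next compared with control in A2780 cells, to see which transporters responded within 3 h. The exporters ABCC1, ABCC4 and ABCC5 and the ATPases ATP7A and ATP7B fell, and SLC31A1 fell by less. No member rose past the test, where 21.2% of all genes tested did, and 6 of 10 fell, where 28.2% of all genes tested did. None had a log2 fold change of 1 or more in either direction with an adjusted p under 0.05, against 5.62% of all genes tested. The median log2 fold change was -0.46 over the members and -0.01 over all genes tested.

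ABCC4 had 352, 407 and 393 normalized counts after cisplatin, all below the A2780 control values given above (585 to 637). Its log2 fold change was -0.69 (SE 0.06, adjusted p = 2.41e-10), and 13.3% of the genes tested changed by more in either direction. ABCC1 had 720, 710 and 667 normalized counts after cisplatin, below all control values, with a log2 fold change of -0.55 (SE 0.04, adjusted p = 1.79e-11). ABCC5 had 599, 597 and 600 after cisplatin, a log2 fold change of -0.39 (SE 0.04, adjusted p = 3.46e-08). The 3 exporters thus stood 38.0%, 31.5% and 23.6% below their control levels. ABCC2 was counted 10, 4 and 12 times, which overlapped its control counts, and its log2 fold change of -0.68 had a standard error of 0.38 (adjusted p = 0.143).

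ATP7A had 101, 115 and 106 normalized counts after cisplatin, below all control values, with a log2 fold change of -0.68 (SE 0.10, adjusted p = 1.59e-06). ATP7B had 169, 163 and 153, a log2 fold change of -0.52 (SE 0.09, adjusted p = 1.16e-05). Both ATPases were therefore below the control level in every treated library. Their chaperone ATOX1 had 180, 173 and 174 normalized counts, above all 3 control libraries, but its log2 fold change of 0.18 did not pass the test (SE 0.09, adjusted p = 0.102). It did pass with the library totals as scaling (adjusted p = 0.00705) and with a filter at a mean of at least 50 counts (adjusted p = 0.0266). In the fit of only the groups compared it also passed (adjusted p = 0.0464).

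SLC31A1 had 551, 588 and 585 normalized counts after cisplatin, 9.61% below control, a log2 fold change of -0.15 (SE 0.04, adjusted p = 0.00766). The groups did not overlap, yet the call was lost with DESeq2 (adjusted p = 0.0647), with the library totals as scaling (adjusted p = 0.629) and without A2780 cisplatin replicate 1 (adjusted p = 0.0556). A filter at a mean of at least 50 counts also lost the call (adjusted p = 0.101). SLC31A2 had 34.7, 45.5 and 50.1 normalized counts after cisplatin and overlapped its control values, with a log2 fold change of 0.21 (SE 0.17, adjusted p = 0.346). LRRC8A had 515, 475 and 495 normalized counts, overlapping its control values, with a log2 fold change of 0.03 (adjusted p = 0.693) with a 95% interval of the fold from 0.941 to 1.11. LRRC8B, LRRC8C and LRRC8D fell by 0.52, 0.62 and 0.54 on the log2 scale, where 28.2% of all genes tested fell.

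The number of all genes called in each direction after cisplatin in A2780 cells depended on the scaling, at 3347 higher and 4451 lower with TMM and 5302 higher and 3060 lower with the library totals, which moved the median of all genes from -0.01 to 0.10. With the library totals, 2 members (ATOX1 and LRRC8A) passed as higher. The falls of ABCC1, ABCC4, ABCC5, ATP7A and ATP7B passed the test under every alternative that was run.

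In Acis cells, the same dose was followed by fewer changes among the transporters. ABCC1 and ABCC4 fell, and the other 8 did not pass the test. Thus no member rose, where 9.35% of all genes tested did, and 2 of 10 fell, where 12.4% of all genes tested did. None passed with a log2 fold change of 1 or more in either direction, against 2.01% of all genes tested. The median log2 fold change was -0.12 over the members and 0.01 over all genes tested.

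ABCC1 had 944, 947 and 1002 normalized counts in the Acis cisplatin libraries, all below the Acis control values (1233 to 1297). Its log2 fold change was -0.38 (SE 0.04, adjusted p = 1.75e-08), a level 23.2% lower. ABCC4 had 535, 574 and 536, below the Acis control range of 608 to 690, with a log2 fold change of -0.22 (SE 0.06, adjusted p = 0.00368). Next to these exporters, ABCC5 had 701, 674 and 702 normalized counts and a log2 fold change of -0.11 (adjusted p = 0.0662). ATP7B had 128, 129 and 133, with a log2 fold change of -0.27 (SE 0.10, adjusted p = 0.0585). ATP7A had 94.1, 129 and 109 and overlapped its control values, with a log2 fold change of -0.12 (adjusted p = 0.514). ABCC5 passed the test without Acis control replicate 2 or 3 (adjusted p = 0.0366 and 0.0484), and ATP7B without Acis control replicate 2 or A2780 control replicate 3 (adjusted p = 0.0272 and 0.0428) and with the replicate number as a block (adjusted p = 0.0392).

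The importer SLC31A1 had 476, 468 and 499 normalized counts in the Acis cisplatin libraries, a log2 fold change of 0.13 (SE 0.05, adjusted p = 0.0751). SLC31A2 had 57.6, 75.8 and 58.9, a log2 fold change of 0.37 (SE 0.15, adjusted p = 0.0852). Neither overlapped its Acis control values, and both passed with the library totals as scaling (adjusted p = 0.00802 and 0.0433). ATOX1 had 174, 202 and 181 normalized counts (log2 fold change 0.12, adjusted p = 0.370). ABCC2 was counted 14, 7 and 6 times, with a log2 fold change of 0.42 and a standard error of 0.46 (adjusted p = 0.598). LRRC8A had 478, 509 and 556 normalized counts, a log2 fold change of -0.14 (adjusted p = 0.0840), which passed without Acis cisplatin replicate 3 (adjusted p = 0.0158) or Acis control replicate 3 (adjusted p = 0.0491). Over all genes the split was 1474 higher and 1962 lower with TMM, 2346 and 1411 with the library totals, and 537 and 1544 with DESeq2.

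Whether the lines differed in their response was tested by the interaction of line and treatment. For 5 of 10 members the log2 change after cisplatin was more positive in Acis than in A2780, where this was so for 13.4% of all genes tested, and for none it was more negative, against 5.48% of all genes tested. The difference was 0.47 for ABCC4 (SE 0.08, adjusted p = 0.000184), 0.56 for ATP7A (SE 0.14, adjusted p = 0.00738), 0.28 for SLC31A1 (SE 0.07, adjusted p = 0.00451), 0.27 for ABCC5 (SE 0.06, adjusted p = 0.00234) and 0.16 for ABCC1 (SE 0.06, adjusted p = 0.0382). For ATP7B it was 0.25 and did not pass (adjusted p = 0.207). For LRRC8A it was -0.17 (adjusted p = 0.155), which passed without Acis cisplatin replicate 3 (adjusted p = 0.0463). The median was 0.26 over the members and 0.03 over all genes tested. With DESeq2 only ABCC4 and ABCC5 passed, ATP7A was lost without Acis cisplatin replicate 2 (adjusted p = 0.0506), and ABCC1 was lost under 12 of its 20 alternatives, among them the omission of any 1 of 6 libraries (adjusted p = 0.0623 to 0.126), namely A2780 control replicates 1 and 2, A2780 cisplatin replicate 3, Acis control replicates 2 and 3, and Acis cisplatin replicate 3. The split over all genes was 2113 more positive and 863 more negative with TMM, and 1463 and 1572 with the library totals.

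After cisplatin, the lines were compared again. ABCC1, ABCC4, ABCC5 and SLC31A2 were higher in Acis, 4 of 10 members where 31.8% of all genes tested were higher, and SLC31A1 and ATP7B were lower, 2 of 10 where 31.2% of all genes tested were lower. None passed with a log2 fold change of 1 or more in either direction, against 19.2% of all genes tested. The log2 fold change was 0.46 for ABCC1 (SE 0.04), 0.52 for ABCC4 (SE 0.06), 0.21 for ABCC5 (SE 0.04) and 0.56 for SLC31A2 (SE 0.15, adjusted p = 0.00195). It was -0.26 for SLC31A1 (SE 0.05) and -0.32 for ATP7B (SE 0.10, adjusted p = 0.00653). ATP7A, which was lower in untreated Acis cells, had a log2 fold change of 0.04 after cisplatin (adjusted p = 0.769), with 101 to 115 normalized counts in A2780 and 94.1 to 129 in Acis. The comparisons of the lines before treatment and of cisplatin in A2780 share the A2780 control libraries.

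**Figure D3:**
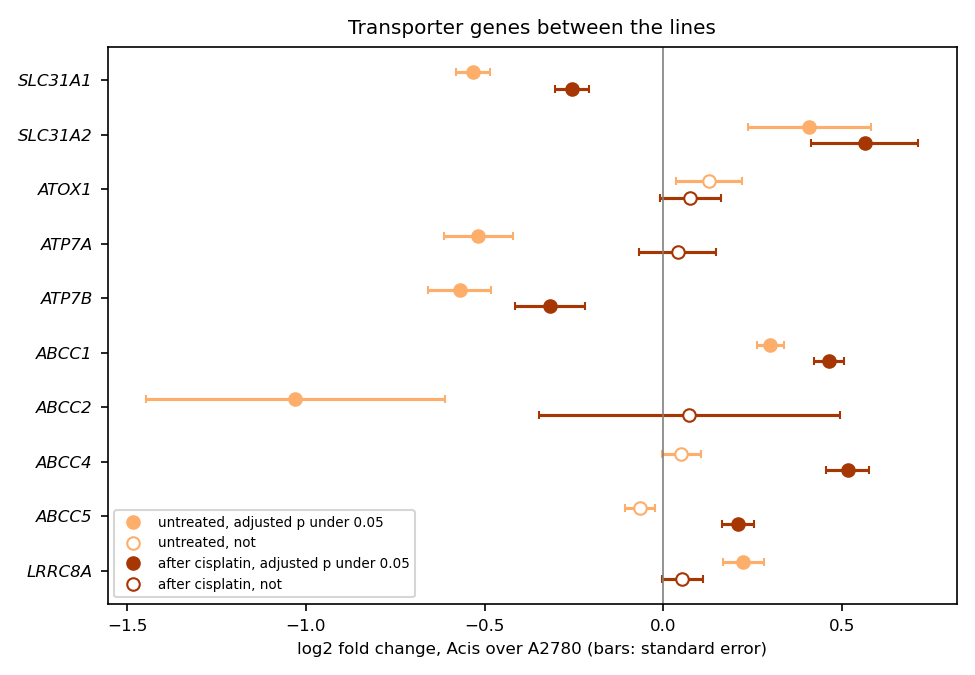
Log2 fold change of Acis over A2780 for each transporter gene, untreated (light) and after cisplatin (dark), with the standard error (SE) as bars and filled points for an adjusted p under 0.05. SLC31A1 and ATP7B lay below 0 in both conditions and ABCC1 above 0 in both, while ATP7A moved from -0.52 to 0.04 and ABCC4 from 0.05 to 0.52.

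The members differ widely in gene length, from 13165 bp for SLC31A2 to 281641 bp for ABCC4, and their change after cisplatin went with it. Across the 10 members the log2 fold change in A2780 cells had a Pearson correlation of -0.88 with the log10 gene length, and -0.69 in Acis cells. These values describe 10 genes measured in the same libraries and are not a test. The genes tested showed the same order, with a median log2 fold change in A2780 of 0.15 for 7685 genes of 1 to 30 kb, -0.15 for 4385 genes of 30 to 100 kb and -0.39 for 2107 genes of 100 to 300 kb. In Acis cells these medians were 0.08, -0.02 and -0.17.

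Set against genes of their own length, SLC31A1, at 42949 bp, had the median change of its class in A2780 (-0.15). SLC31A2 (13165 bp), in the class of 1 to 30 kb, lay within the interquartile range in A2780 (0.21) and above it in Acis (0.37). ABCC1 (194120 bp, -0.55) lay just inside the lower edge of the interquartile range of its class, which ran from -0.56 to -0.20, and ABCC4 (-0.69) and ATP7A (139706 bp, -0.68) lay below it. ATP7B (81690 bp, -0.52), ABCC5 (98006 bp, -0.39) and ABCC2 (69955 bp, -0.68) lay below the interquartile range of the genes of 30 to 100 kb (-0.31 to 0.01), and ATOX1 (30217 bp, 0.18) and LRRC8A (35907 bp, 0.03) lay above it. ABCC5 is near the upper edge of this class in length, and its change matched the median of the genes of 100 to 300 kb (-0.39). In Acis cells ABCC4 (-0.22) and ATP7A (-0.12) lay within the interquartile range of their class (-0.31 to -0.03) and ABCC1 (-0.38) below it. Among the genes of 30 to 100 kb in Acis cells (-0.12 to 0.09), ATP7B (-0.27) and LRRC8A (-0.14) lay below the interquartile range, ABCC5 (-0.11) within it, and SLC31A1 (0.13), ATOX1 (0.12) and ABCC2 (0.42) above it. ATOX1 exceeded 30 kb only from its GENCODE start, 13901 bp upstream of its RefSeq start. In the class of 1 to 30 kb its changes would lie within the interquartile ranges (-0.03 to 0.37 in A2780 and -0.03 to 0.26 in Acis). The part of gene length in these changes was not tested.

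**Figure D4:**
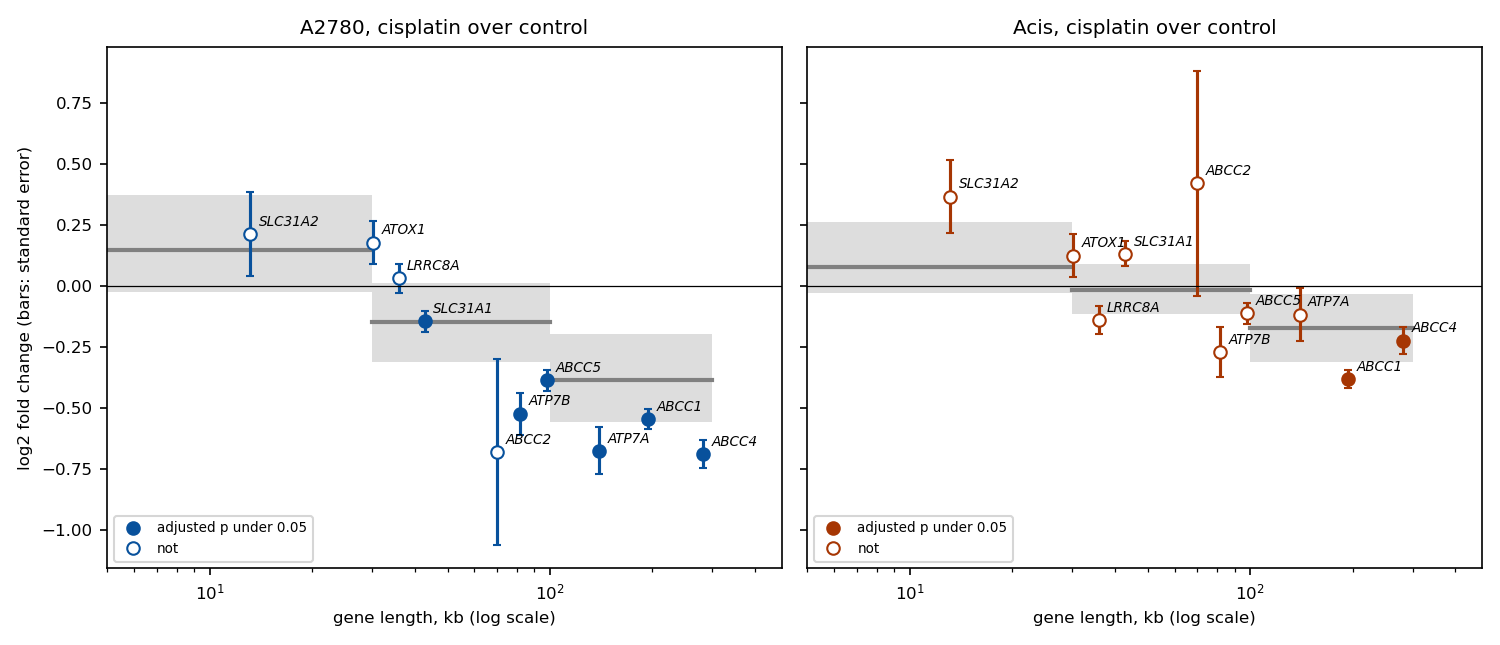
Log2 fold change after cisplatin of each transporter gene against its gene length in kb (log axis), in A2780 (left) and Acis (right), with the standard error (SE) as bars and filled points for an adjusted p under 0.05. Gray lines and bands give the median and the interquartile range of all genes tested in 3 length classes, and in A2780 the longest genes, ABCC4, ABCC1 and ATP7A, had changes of -0.69, -0.55 and -0.68.

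Accessible chromatin at the starts of the genes was read from the ATAC-seq peak lists, which give for each peak the fold enrichment over the local background. The lists hold 34979 peaks in untreated and 32159 in treated A2780 cells, and 24485 in untreated and 27321 in treated Acis cells. Control lists were made from 3 replicates and cisplatin lists from 2. There is 1 list per condition, with no values per replicate, so no difference between lists could be tested, and beyond a minimum of aligned reads given in the methods the depth behind each list is not in the files. A peak within 1000 bp of the RefSeq start was listed in all 4 conditions for 8 members.

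At SLC31A1 the peak spanned chr9:113221051-113221945 in A2780 control cells and covered the whole window printed above, with its summit 144 bp upstream of the start. In A2780 the fold enrichment was 22.8 without and 20.0 with cisplatin, and in Acis it was 27.5 without and 29.6 with cisplatin. The peak at ATP7B had 25.2, 19.9, 29.1 and 29.8 in the same order, and that at ATP7A 17.2, 15.1, 21.2 and 22.1. The enrichments of these 3 peaks were thus higher in the Acis lists, where the RNA of these genes was lower before treatment, but the median over all peaks of a list was also higher there (12.8 in Acis control against 9.96 in A2780 control, and 11.04 against 8.79 after cisplatin).

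A peak at the start of ABCC1 was listed in A2780 control (fold enrichment 7.71) and A2780 cisplatin cells (5.70), and in neither Acis list. These 2 peaks ranked 25395 of 34979 and 25149 of 32159 by significance in their lists. Over the whole ABCC1 gene, the A2780 lists held 6 peaks without and 3 with cisplatin and the Acis lists none without and 2 with cisplatin, while the ABCC1 RNA was higher in Acis. ABCC2 had no peak at its start in any list. At ABCC5 the enrichment was 22.1, 20.2, 23.0 and 24.0 in the order used above, at LRRC8A 16.5, 14.9, 18.0 and 16.8, at ABCC4 12.6, 11.5, 13.3 and 13.8, at ATOX1 13.6, 8.16, 14.1 and 13.3 and at SLC31A2 11.3, 6.65, 10.7 and 8.91. All 9 members with a start peak in A2780 had a lower value in the cisplatin than in the control list of that line, as did the median over all peaks.

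**Figure D5:**
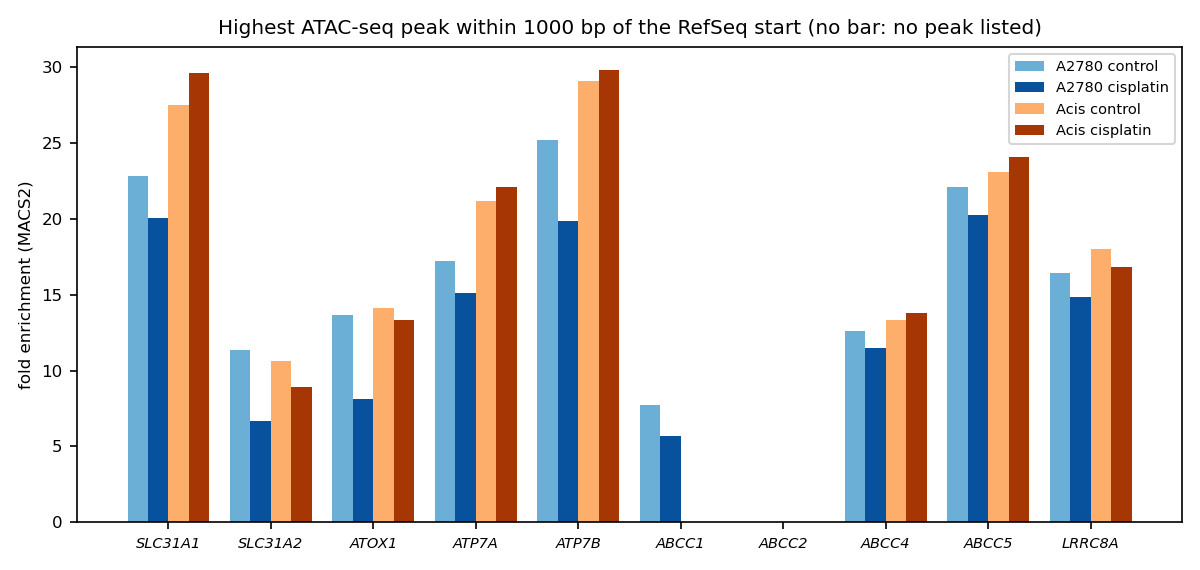
Fold enrichment of the highest ATAC-seq peak within 1000 bp of the RefSeq start of each transporter gene in the 4 conditions, with no bar where no peak was listed (linear axis from 0, 1 list per condition and no error). SLC31A1, ATP7A, ATP7B, ABCC4, ABCC5, LRRC8A and ATOX1 had their highest bar in an Acis list, and SLC31A2 in the A2780 control list. ABCC1 had bars in the 2 A2780 lists (7.71 and 5.70) and not in the Acis lists, and ABCC2 had none.

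Other genes of copper handling were followed as a list of 19, of which 18 had a row and were tested. Between the untreated lines 5 of 18 were higher and 6 lower in Acis, where 28.2% of all genes tested were higher and 30.6% lower. The genes with the smallest adjusted p were CP, STEAP3 and STEAP2. CP, the gene of the plasma copper protein ceruloplasmin, had a mean of 173 normalized counts in A2780 control and 0 counts in all Acis control libraries, which makes it at least 159-fold lower (against a floor of 3 counts over the group, for counting error only). Of the metalloreductase genes, STEAP3 was higher in Acis (log2 fold change 1.66, SE 0.07) and STEAP2 lower (-3.03, SE 0.20).

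After cisplatin in A2780 cells 6 genes of this list rose and 6 fell, with a median of 0.05, where 21.2% of all genes tested rose and 28.2% fell. XIAP, whose protein ubiquitinates copper-binding proteins such as COMMD1, fell by 0.57 on the log2 scale, while COX19, an assembly factor of cytochrome c oxidase, rose by 0.59 and SLC25A3, the mitochondrial carrier of phosphate and copper, by 0.30. In Acis cells 4 rose and none fell at an adjusted p under 0.05, where 9.35% of all genes tested rose and 12.4% fell, and with DESeq2 1 rose.

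Of 8 other genes of the ABCC family 5 had a row and 3 were tested. In untreated Acis cells ABCC8, a regulatory subunit of potassium channels, was higher (log2 fold change 2.78, SE 0.24, from a mean of 7.20 to 50.3 normalized counts), and so was ABCC10 (0.29, adjusted p = 0.00584, and 0.0659 without A2780 control replicate 3). ABCC6 was lower (-2.65, SE 0.19, from 84.7 to 13.3). After cisplatin in A2780, ABCC6 had a log2 fold change of -0.31 (adjusted p = 0.0381), a call lost without A2780 control replicate 1 or 3 or A2780 cisplatin replicate 2 (adjusted p = 0.0817, 0.0867 and 0.251).

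Of 12 other drug and cation transporters 8 had a row and 7 were tested. In untreated Acis cells 5 were higher and none lower at an adjusted p under 0.05, where 28.2% of all genes tested were higher and 30.6% lower. Leaving out 1 library gave 4 to 6 higher. Those with the smallest adjusted p were the nucleoside transporter SLC29A1 (log2 fold change 0.45, SE 0.05), the multidrug and toxin extruder SLC47A1 (0.73, SE 0.08) and the carnitine transporter SLC22A5 (0.78, SE 0.09). After cisplatin in A2780, TMEM205 (0.26, adjusted p = 0.0138) and SLC22A4 (1.35, adjusted p = 0.0277, with a mean of 2.95 normalized counts in control) passed as higher. Neither did with DESeq2 (adjusted p = 0.132 and 0.130), TMEM205 did not without A2780 control replicate 3 or A2780 cisplatin replicate 2 (adjusted p = 0.134 and 0.0564), and SLC22A4 did not without A2780 control replicate 2 or 3 or A2780 cisplatin replicate 1 (adjusted p = 0.114, 0.0589 and 0.201).

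The genes whose pattern was most like 4 of the members were found by the Pearson correlation of log2 CPM (counts scaled to library size) over the 12 libraries among 10898 genes. For SLC31A1 these were KIFAP3 (0.99), ANKRD40 (0.98) and MDM1 (0.98). For ATP7B they were DAZAP1 (0.96), AGK (0.96) and PIK3C2B (0.96), and for LRRC8A they were SNAPC4 (0.92), TUBGCP2 (0.92) and RAVER1 (0.91). For ABCC2 they were CEBPZOS (0.85), PRPSAP2 (0.83) and THAP5 (0.83), at counts of 3 to 19 per library. The 12 libraries fall into 4 groups, so these values mostly describe likeness between group means.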

How the data were processed

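RNA-seq was measured in 12 libraries (3 per group of line and treatment) and ATAC-seq as 1 peak list per condition. The XR-seq samples, which map excision repair, are not analysed here. Per the methods of the authors, ribosomal RNA-depleted stranded reads were aligned to hg38 with STAR (2.7.3), PCR duplicates were removed with Picard, and reads were counted per gene with HTSeq (0.11.1) for the reverse strand. The authors deposited raw counts, without normalization. ATAC-seq reads were aligned with Bowtie2 (2.4.1). The peaks that overlapped between all replicates were deposited with the fold enrichment and the -log10 p and -log10 q values computed by MACS2.

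Counts were fitted here in R 4.3.3 with edgeR 4.0.16, in 1 model of the 4 groups with TMM scaling, edgeR's default filter on low counts (15760 genes kept), 8 residual degrees of freedom, the quasi-likelihood test and Benjamini-Hochberg adjustment over all genes tested. Calls used an adjusted p-value under 0.05. Normalized counts are counts scaled to the mean effective library size. DESeq2 1.42.0, other scalings and filters, merged replicates and the omission of each library were alternatives. The fits were run on simulated counts, with changes set only in genes of at least 50 mean counts and only for cisplatin in A2780. This simulation did not cover changes in genes with fewer counts, differences between the lines or the interaction. Total counts of 4130644 to 5072216 per library leave genes with few counts, such as ABCC2, with wide errors. Replicates differed by 0.73 to 1.53 times the counting noise, and pairs below it were kept as replicates, with their merging as an alternative. Gene models came from GENCODE, and sequences, starts and GC content from RefSeq (GRCh38.p14). Python 3.11.15 with pandas 2.3.3 and matplotlib 3.10.9 read peaks, sequences and lengths.

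The members and gene lists were chosen with earlier results of these data known. All members were named, and from each other list the counts in each direction and, for the untreated lines and for cisplatin in A2780, at most 3 passing genes with the smallest adjusted p.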

Additional observations from a re-analysis of the deposited data

Results flagged for a closer look

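For 5 transporter genes the log2 change after cisplatin differed between Acis and A2780 cells by the interaction contrast of edgeR's quasi-likelihood test. The difference, Acis minus A2780, was 0.47 for ABCC4, which fell by 0.69 in A2780 and by 0.22 in Acis. It was 0.27 for ABCC5, with changes of -0.39 and -0.11, and 0.28 for SLC31A1, with -0.15 and 0.13. It was 0.56 for ATP7A, with -0.68 and -0.12, and 0.16 for ABCC1, with -0.55 and -0.38. All 5 differences were positive. Of all genes tested, 2113 (13.4%) were more positive in Acis and 863 (5.48%) more negative. Positive differences were thus also the more common among all genes called with TMM. With the library totals as scaling, 1463 of all genes tested were more positive and 1572 more negative. The adjusted p-values over the alternatives ranged from 3.79e-05 to 0.00178 for ABCC4, from 0.000209 to 0.0363 for ABCC5, from 0.00332 to 0.0691 for SLC31A1, from 0.00218 to 0.0663 for ATP7A and from 0.0176 to 0.213 for ABCC1.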

How the results depend on the processing

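The number of members called was compared over DESeq2, other scalings and filters, the groups compared alone, merged replicates, the replicate block and the omission of each library. After cisplatin in A2780, 2 members were higher with the library totals as scaling, 1 with a mean of at least 50 counts and 1 in the fit of only the groups compared, against 0. In Acis, 4 were lower with RLE size factors, against 2, and 2 and 1 were higher with the library totals and with a mean of at least 50 counts, against 0. For the interaction, 2 were more positive with DESeq2, against 5, and 1 was more negative with the library totals and 1 with a mean of at least 50 counts, against 0. The library totals moved the median of all genes in A2780 from -0.01 to 0.10. Leaving out 1 library gave 0 higher and 5 to 6 lower in A2780, 0 higher and 2 to 4 lower in Acis, 4 to 5 more positive and 0 to 1 more negative for the interaction, 2 to 3 higher and 3 to 4 lower between the untreated lines, and 4 higher and 2 lower after cisplatin. The numbers of the replicates gave no pairing (correlations of deviations from -0.15 to 0.20 over 18 pairs), and with the replicate block 3 members were lower in Acis after cisplatin, against 2, while the other counts did not change.

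Changes of direction occurred where neither fit passed the test, and most came from leaving out 1 library. Over these omissions the log2 fold change ran from -0.018 to 0.061 for LRRC8A after cisplatin in A2780, from -0.030 to 0.66 for ABCC2 after cisplatin in Acis, from -0.018 to 0.072 for ABCC4 between the untreated lines and from -0.14 to 0.021 for ATOX1 in the interaction. Between the treated lines it ran from -0.077 to 0.15 for ATP7A, from -0.37 to 0.39 for ABCC2 and from -0.00069 to 0.11 for LRRC8A. In that comparison ATP7A also had -0.014 with the library totals and -0.0083 with a mean of at least 50 counts, and LRRC8A -0.00157 with the library totals. Peaks at starts, 9 in each A2780 list and 8 in each Acis list from both annotations, numbered 7 to 9 from GENCODE starts under a window of 500 bp, a -log10 q of at least 50 or the top 20000 peaks. From RefSeq starts, added after seeing the data, they numbered 6 to 9 under the same choices, with 6 in A2780 cisplatin at a -log10 q of at least 50. The causes were not tested.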
